A study of Mus musculus with 26 samples.

Results

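The genes described are those that pass a signal from G-protein-coupled receptors to cyclic nucleotides: the alpha, beta and gamma subunits of heterotrimeric G proteins, the Rgs proteins, the adenylyl cyclases, the phosphodiesterases and the receptors named Gpr. They were chosen by symbol alone (names beginning Gna, Gnb, Gng, Rgs, Adcy or Pde with a letter or number, and Gpr with a number, leaving out Gpr17 and Gpr37). Of the 10104 transcripts listed for either cell type, 66 were members, with 1 transcript for each gene. There were 51 members among 8530 transcripts in oligodendrocyte progenitor cells (OPCs), 64 among 9751 in oligodendrocytes (OLs) and 49 among the 8177 listed for both. By role they were 11 alpha subunits, 5 beta subunits, 5 gamma subunits, 7 Rgs genes, 6 cyclases, 12 phosphodiesterases and 20 Gpr genes.

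Mouse OPCs derived from epiblast stem cells (strain 129S/SvEv) were kept in medium with bFGF and PDGFA. For OLs they were passaged in that medium without bFGF and then differentiated for 40 h before labelling. RNA was then labelled with 5-ethynyluridine (5-EU) for 24 h and chased with uridine, and the biotin-coupled labelled RNA was sequenced at 0, 1, 2, 4 and 6 h, in 3 OPC replicates (15 libraries) and 2 OL replicates (10 libraries). The OL medium held thyroid hormone (T3, 40 ng/mL), noggin, IGF-1, NT3 and cyclic AMP (10 uM), so for these genes the cell type and the added cyclic AMP cannot be told apart. The OL cultures keep some undifferentiated OPCs by the study's account, and in such bulk samples fewer cells of a type and less RNA per cell cannot be told apart. By the study's methods the OL replicates match 2 of the OPC replicates, but which ones is not stated. An OPC control without biotin was not analysed here.

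The labels were checked against marker genes. Of 10 oligodendrocyte markers, 2 were listed in OPCs and 9 in OLs, and their summed 0 h level was 37.6 to 55.1 FPKM (fragments mapped per kilobase, relative to library size) in OPCs against 6192 and 2837 FPKM in OL replicates 1 and 2. All 6 OPC markers were listed in both, at 305 to 426 FPKM in OPCs and 582 to 613 FPKM in OLs. Gpr17 alone went from 5.00 to 6.61 FPKM in OPCs to 323 and 299 FPKM in OLs, and the other 5 summed to 299 to 421 FPKM in OPCs and to 290 and 282 FPKM in OLs. By the test of 0 h levels used below, Pdgfra and Lhfpl3 were also called higher in OLs. Pdgfra was at 11.5 to 26.5 FPKM in OPCs and at 66.9 and 43.9 FPKM in OLs (adjusted p = 0.0120, lost without OL replicate 1). The Lhfpl3 call (adjusted p = 0.0348) was lost without OPC replicate 3, OL replicate 1 or OL replicate 2. With Gpr17, 3 of the 6 OPC markers were called higher and 1 lower, where 13.8% and 15.8% of all transcripts were. Of 6 astrocyte markers, 3 were listed in OPCs (242 to 291 FPKM) and 5 in OLs (221 and 448 FPKM). Slc1a2 was called higher in OLs (22.9 to 37.0 FPKM against 77.4 and 95.7 FPKM, adjusted p = 0.00401). Gja1 was at 35.8 to 42.0 FPKM in OPCs and at 40.1 and 188 FPKM in OLs. Slc1a3 was lower in OLs, at 179 to 224 FPKM in OPCs and at 95.5 and 155 FPKM in OLs, without passing the test. Of 6 neuron markers, 2 were listed in OPCs (81.8 to 183 FPKM) and 3 in OLs (203 and 188 FPKM), and none of 6 microglia markers in either. The part of these cells in the results below was not tested.

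As background, an activated receptor makes the alpha subunit exchange GDP for GTP and part from the beta-gamma pair. Gs-type alpha subunits stimulate adenylyl cyclases and Gi-type alpha subunits inhibit them, Rgs proteins speed the return to the GDP form, and phosphodiesterases degrade the cyclic AMP or cyclic GMP that has been made. In the oligodendrocyte lineage cyclic AMP is known to influence differentiation, and it is often added to culture media for that reason. Several symbols in the set are historical. Pde12 is a 2′-phosphodiesterase that acts on RNA, Pde4dip is the scaffold myomegalin, Pde6d binds prenylated proteins, Rgs7bp anchors Rgs proteins at membranes, Gnb1l is only related to beta subunits, and Gpr89, Gpr107, Gpr108 and the Gpr137 genes encode membrane proteins of internal compartments rather than classical receptors.

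Messenger RNAs that turn over fast often hold the pentamer AUUUA in the 3′ untranslated region (3′ UTR), so this element was looked for in the members. It was found (as ATTTA on the mRNA strand) in 78.8% of members and in 69.1% of all listed transcripts, and the median 3′ UTR length was 1722 nt in members against 1096 nt in all transcripts. The windows below, from GRCm38 with the GENCODE M21 transcript models, show 25 bases around 1 ATTTA of each 3′ UTR. They run 5′ to 3′ on the mRNA strand, with each ATTTA in capitals. Windows were placed at a set distance before each ATTTA and the first with the most copies is shown, so a denser stretch may exist. The first 3 belong to members with short half-lives in at least 1 cell type, the next 3 to members whose half-life or decline differed between the cell types, and the last 2 to members at the 6 h ceiling in all 5 replicates.
Rgs16 (chr1:153745328-153745352): ctgtgttaatATTTATTTAttgtta
Pde7a (chr3:19226979-19227003): gagactgagcATTTATTTAccacag
Pde4b (chr4:102606229-102606253): actgttttcaATTTAatgctgctgt
Adcy6 (chr15:98590019-98590043): tcagtgaaatATTTAatatATTTAa
Rgs20 (chr1:4910445-4910469): tttcaaatatATTTAttattaacaa
Gpr161 (chr1:165326315-165326339): tgtcagttgcATTTATTTAaagatg
Gng12 (chr6:67017747-67017771): ccctttactgATTTAatacagaata
Gng10 (chr4:59041302-59041326): ggcatgttttATTTActgggttttg

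The pentamer was therefore present in both short-lived and long-lived members. Rgs16 had 4 copies and Pde7a 13, but Gng12 had 7 and Gng10 had 3, and Pde4d, among the steepest decliners in OLs, had 0 in a listed 3′ UTR of 130 nt. Across members, Spearman's rank correlation between the number of pentamers and half-life was -0.33 to -0.12 in the 3 OPC replicates (51 members), against -0.18 to -0.06 over all transcripts. In OL replicates 1 and 2 (62 members) it was -0.15 and -0.16, against -0.25 and -0.17 over all transcripts. The points within a replicate share their libraries and 1 scale factor per time point. The members used the codon UUU for a median of 35.3% of their phenylalanines and AAA for 31.4% of their lysines, against 44.4% and 37.5% over all transcripts.

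The first comparison asked which members differed in labelled mRNA before the chase, a level that sums synthesis and decay over the labelling period. Labelled Gng12, a gamma subunit gene, rose most in OLs and Adcy2, a cyclase gene, fell most. Of the 49 members in both tables, 12 were higher in OLs where 13.8% of all 8177 transcripts were called higher, and 8 were lower where 15.8% were called lower (limma on log2(FPKM + 1), adjusted p under 0.05). The members' shares were 24.5% and 16.3%, and the 20 calls became 7 without OPC replicate 3, 6 without OL replicate 1 and 8 without OL replicate 2. The replicates did not overlap, higher in OLs, for 16 members (28.0% of all transcripts) and, lower in OLs, for 14 members (31.4% of all transcripts). The median difference was 0.09 over members and -0.01 over all transcripts on that scale.

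**Figure D1:**
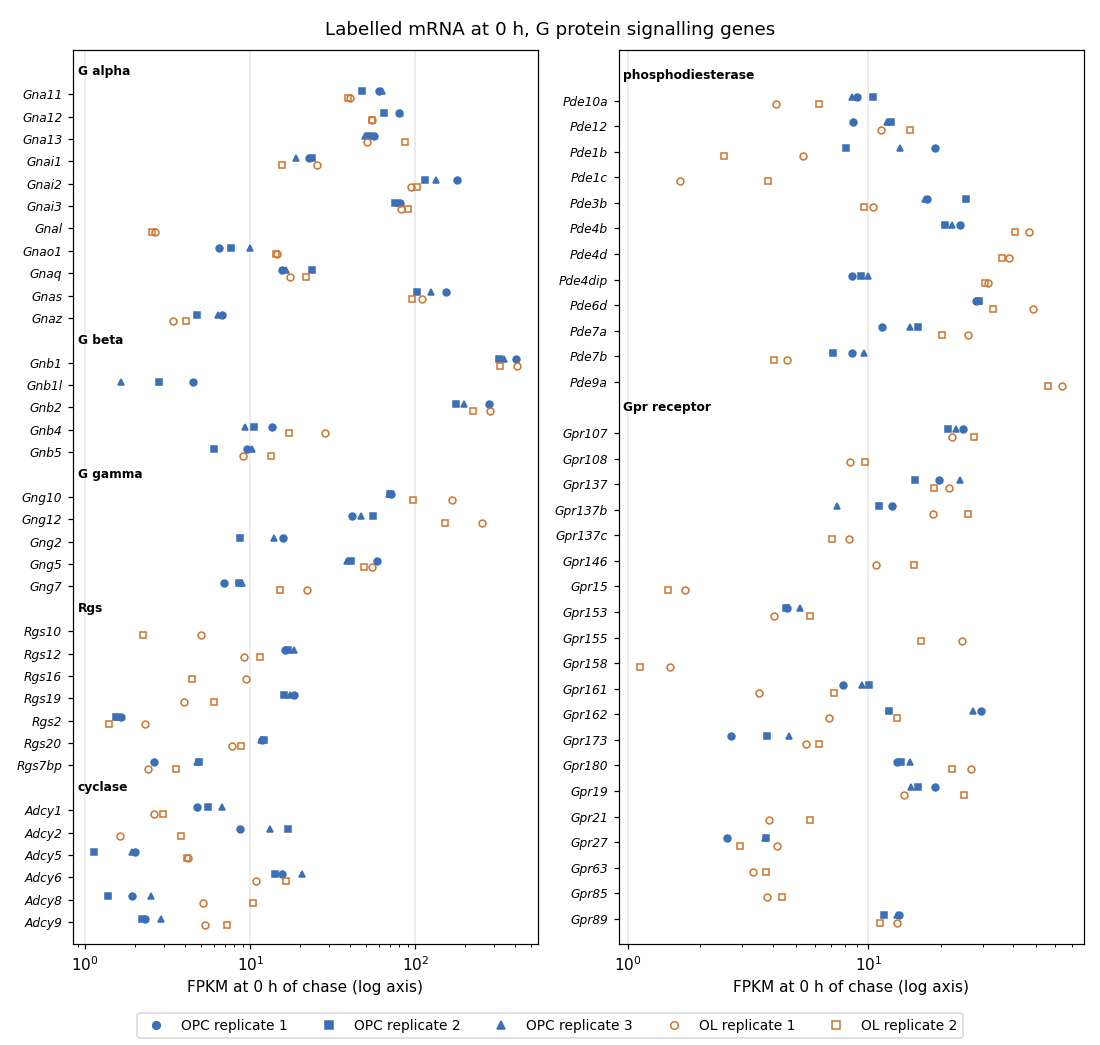
Labelled mRNA of the 66 members at 0 h of chase, in FPKM on a log axis, grouped by role, with 1 point for each of 3 OPC replicates (filled) and 2 OL replicates (open). A gene with open points only was listed in OLs only, such as Pde9a at 64.1 and 55.9 FPKM, and Gng12 lies at 41.1 to 55.3 FPKM in OPCs and at 253 and 152 FPKM in OLs.

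Among the alpha subunits the most abundant in OPCs was Gnai2, the inhibitory subunit Gi2, at 178, 114 and 134 FPKM in replicates 1 to 3, with 93.7 and 103 FPKM in OLs. Gnas, which encodes the stimulatory subunit Gs, stood at 153, 103 and 124 FPKM in OPCs and at 109 and 94.8 FPKM in OLs, and was the most abundant alpha subunit in OL replicate 1. The Gnas values of the cell types overlapped. Together the listed alpha subunits summed to 517 to 659 FPKM in OPCs and to 493 and 526 FPKM in OLs.

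Of the 10 alpha subunits in both tables, 1 rose and none fell, at a median difference of -0.21. The one was Gnao1, the Go subunit best known from neurons, at 6.44, 7.67 and 9.93 FPKM in OPCs and 14.5 and 14.2 FPKM in OLs (adjusted p = 0.0396). The Gnao1 call was lost when any single replicate was left out (adjusted p 0.0618 to 0.167), which left no alpha subunit called. Gnai3, another Gi subunit, was at 75.4 to 80.5 FPKM in OPCs and at 81.3 and 90.3 FPKM in OLs. Gna11 and Gnaq, which activate phospholipase C beta, and Gna12 and Gna13, which form a subfamily of their own, did not pass the test. Gnal, the olfactory relative of Gs, was listed only in OLs, at 2.64 and 2.54 FPKM.

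The beta and gamma subunits form a tight pair, and the gamma subunit carries the lipid that holds it at the membrane. Gnb1 was the most abundant member of all, at 410, 323 and 346 FPKM in OPCs and 411 and 327 FPKM in OLs, and Gnb2 followed at 176 to 280 FPKM in OPCs and 284 and 224 FPKM in OLs. Gnb4 was far lower, at 13.5, 10.5 and 9.35 FPKM in OPCs, and rose to 28.2 and 17.3 FPKM in OLs, by 0.95 ± 0.28 (SE) on the log2 scale (adjusted p = 0.0362). That call was lost without OPC replicate 2 (adjusted p = 0.0631), OPC replicate 3 (0.128) or OL replicate 1 (0.241). Gnb5, which pairs with a subfamily of Rgs proteins, overlapped between the cell types.

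Of the 4 gamma subunits common to the cell types, 3 rose, with a median difference of 0.97 over the 4. Gng12 had 41.1, 55.3 and 46.6 FPKM in OPCs and 253 and 152 FPKM in OLs. It was higher in both OL replicates than in any OPC replicate, by 2.03 ± 0.28 (adjusted p = 0.00166), and the call held in all 9 alternatives, with adjusted p from 1.73e-04 to 0.0212. Gng7 had 6.92, 8.52 and 8.92 FPKM in OPCs and 21.9 and 15.2 FPKM in OLs, a difference of 1.09 ± 0.24 (adjusted p = 0.0136) that was lost without OL replicate 1 (adjusted p = 0.112). Gng10 also rose, from 69.7 to 71.1 FPKM in OPCs to 168 and 96.8 FPKM (adjusted p = 0.0465), but 946 nt of its exons overlap an annotated same-strand gene model (Gm20503), so reads could be shared. The Gng10 call was lost with a pseudocount of 0.1 (adjusted p = 0.0584) and without OPC replicate 2 (0.0718), OPC replicate 3 (0.129) or OL replicate 1 (0.287), and without OL replicate 1 only Gng12 of the 4 passed.

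Gng12 alone made up 21.3% to 30.2% of the summed FPKM of all listed gamma subunits in OPCs and 50.9% and 48.5% in OLs. Over the 4 listed in both cell types, the sum was 164 to 178 FPKM in OPCs and 497 and 313 FPKM in OLs. Gng10 was the most abundant in OPCs, with 36.8% to 39.2% of the sum. Gng5 was at 38.7 to 58.4 FPKM in OPCs and 54.3 and 49.1 FPKM in OLs, which overlap. Gng2 was listed only in OPCs, at 15.7, 8.66 and 14.0 FPKM, as was Gnb1l at 4.52, 2.78 and 1.64 FPKM. The share of OPC transcripts listed for OPCs only was 3.92% among members and 4.14% over all transcripts.

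Of the 5 Rgs genes tested, 2 were lower in OLs and none higher, at a median difference of -0.47. Rgs19, which acts on Gi-type subunits, had 18.5, 16.1 and 17.4 FPKM in OPCs and 3.97 and 6.05 FPKM in OLs, and fell by 1.63 ± 0.24 on the log2 scale (adjusted p = 0.00215). The call held in all 9 alternatives (adjusted p 0.00122 to 0.0290). Rgs12, a large Rgs protein with further signalling domains, fell as well, from 16.2, 16.9 and 18.3 FPKM to 9.21 and 11.4 FPKM (adjusted p = 0.0444). That call was lost with libraries scaled by their median ratio (adjusted p = 0.0515) and without OPC replicate 2 (0.0631), OPC replicate 3 (0.165), OL replicate 1 (0.226) or OL replicate 2 (0.0883). Rgs20 was at 11.6 to 12.1 FPKM in OPCs and at 7.76 and 8.73 FPKM in OLs, which do not overlap, without passing the test. Rgs16 (9.37 and 4.45 FPKM) and Rgs10 (5.01 and 2.25 FPKM) were listed only in OLs.

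Of the 6 adenylyl cyclases, 3 rose and 2 fell in OLs. Adcy2, a cyclase that beta-gamma subunits stimulate together with Gs, had 8.65, 16.9 and 13.2 FPKM in OPCs and 1.63 and 3.78 FPKM in OLs, and fell by 1.93 ± 0.35 on the log2 scale (adjusted p = 0.00586, and 0.0649 without OL replicate 1). Adcy8, which calcium and calmodulin stimulate, had 1.93, 1.37 and 2.50 FPKM in OPCs and 5.13 and 10.4 FPKM in OLs, a rise of 1.53 ± 0.31 (adjusted p = 0.00961, and 0.0739 without OL replicate 2). Adcy1, also stimulated by calcium and calmodulin, fell instead, from 4.79, 5.57 and 6.78 FPKM to 2.60 and 2.96 FPKM (adjusted p = 0.0288), a call lost without OPC replicate 3 (0.128), OL replicate 1 (0.155) or OL replicate 2 (0.0956).

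The other 2 cyclase genes that rose were Adcy9 and Adcy5. Adcy9, a widely expressed cyclase, had 2.29, 2.21 and 2.86 FPKM in OPCs and 5.30 and 7.25 FPKM in OLs, a difference of 1.07 ± 0.23 (adjusted p = 0.0115, and 0.0862 without OL replicate 2). Adcy5, which calcium inhibits, had 2.01, 1.13 and 1.92 FPKM in OPCs and 4.18 and 4.13 FPKM in OLs, a difference of 0.96 ± 0.24 (adjusted p = 0.0199). The Adcy5 call was lost without OPC replicate 3 (adjusted p = 0.0591), OL replicate 1 (0.109) or OL replicate 2 (0.0930). Adcy6, the close relative of Adcy5, did not pass the test, at 15.6, 14.1 and 20.6 FPKM in OPCs and 10.8 and 16.4 FPKM in OLs.

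The cyclase genes summed to 35.2 to 47.9 FPKM in OPCs and to 29.7 and 44.9 FPKM in OLs, which overlap. The shares of single genes in that sum were not tested. Adcy6 was the most abundant in both OL replicates and in OPC replicates 1 and 3, with 34.2% to 44.2% of the sum in OPCs and 36.5% in each OL replicate. Adcy2 held 24.5%, 41.0% and 27.5% of the sum in OPCs, and was ahead of Adcy6 in OPC replicate 2, but held 5.49% and 8.43% in OLs. Adcy8 held 3.31% to 5.47% in OPCs and 17.3% and 23.1% in OLs.

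Among the 9 phosphodiesterase-named genes in both tables, 2 rose and 4 fell. Pde4dip, the scaffold myomegalin, had 8.60, 9.37 and 9.94 FPKM in OPCs and 31.4 and 30.5 FPKM in OLs, a rise of 1.63 ± 0.21 (adjusted p = 0.00111) that held in all 9 alternatives (adjusted p 7.22e-04 to 0.0176). Pde4b, an enzyme specific for cyclic AMP, had 24.2, 20.9 and 22.2 FPKM in OPCs and 46.4 and 40.9 FPKM in OLs, a rise of 0.93 ± 0.21 (adjusted p = 0.0139). The Pde4b call was lost without OPC replicate 3 (adjusted p = 0.0658), OL replicate 1 (0.0992) or OL replicate 2 (0.0556), although the OPC and OL values stand well apart.

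The phosphodiesterases that fell include enzymes that calcium or cyclic GMP regulates. Pde1b, which calcium and calmodulin activate, had 19.0, 8.07 and 13.5 FPKM in OPCs and 5.36 and 2.50 FPKM in OLs, and fell by 1.55 ± 0.38 (adjusted p = 0.0199, with 0.0602 without OPC replicate 3 and 0.155 without OL replicate 2). Pde3b, which cyclic GMP inhibits, went from 17.6, 25.5 and 17.3 FPKM to 10.4 and 9.56 FPKM. Pde7b, specific for cyclic AMP, went from 7.11 to 9.63 FPKM in OPCs to 4.60 and 4.06 FPKM, and Pde10a, which hydrolyses both cyclic nucleotides, from 8.58 to 10.4 FPKM to 4.14 and 6.26 FPKM. All 3 of these calls were lost without OPC replicate 3, OL replicate 1 or OL replicate 2 (adjusted p 0.0628 to 0.131 for Pde3b, 0.105 to 0.140 for Pde7b and 0.0612 to 0.270 for Pde10a), and Pde10a also without OPC replicate 2 (0.0843). Pde7a, the other cyclic AMP enzyme of its family, had 11.4 to 16.0 FPKM in OPCs and 25.9 and 20.3 FPKM in OLs without passing the test.

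A pair of phosphodiesterases was abundant in OLs and not listed in OPCs. Pde9a, which is specific for cyclic GMP, was the most abundant phosphodiesterase in OLs, at 64.1 and 55.9 FPKM, and Pde4d, specific for cyclic AMP, was at 38.3 and 35.8 FPKM. The authors kept only transcripts of at least 1 FPKM at 0 h and with a signal early in the chase, so absence from the OPC table is not a measured 0 and no fold is given. Pde1c was also listed only in OLs, at 1.64 and 3.82 FPKM. Over the 9 phosphodiesterase-named genes listed in both cell types, which include Pde6d, Pde4dip and Pde12, the sum was 135 to 139 FPKM in OPCs and 188 and 162 FPKM in OLs.

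The Gpr genes held the most members listed in only 1 cell type. Of 20 listed in OLs, 11 were also listed in OPCs, and the OL-only 9 were Gpr155 (24.4 and 16.5 FPKM), Gpr146 (10.8 and 15.5 FPKM), Gpr108 (8.38 and 9.68 FPKM), Gpr137c (8.32 and 7.07 FPKM), Gpr21, Gpr63, Gpr85, Gpr15 and Gpr158, the last 5 at 1.12 to 5.75 FPKM. Over all members, 23.4% of those in OLs were listed for OLs only, against 16.1% of all OL transcripts. Of the 11 in both tables, 2 rose and none fell. Gpr137b, which encodes a lysosomal membrane protein, had 12.5, 11.1 and 7.38 FPKM in OPCs and 18.6 and 26.1 FPKM in OLs, a difference of 1.05 ± 0.28 (adjusted p = 0.0255). That call was lost without OPC replicate 3 (adjusted p = 0.0969), OL replicate 1 (0.0701) or OL replicate 2 (0.169). Gpr180 went from 13.2 to 14.8 FPKM in OPCs to 26.7 and 22.2 FPKM in OLs, a call lost without OPC replicate 3 (adjusted p = 0.0926), OL replicate 1 (0.169) or OL replicate 2 (0.0742). Without OPC replicate 3 or OL replicate 1 no Gpr gene passed, and without OL replicate 2 only Gpr161 did, lower in OLs.

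The second comparison asked which member mRNAs decayed at a different rate. Half-lives were those the authors fitted to each replicate, and values above 6 h stand at a ceiling of 6 h. Of the 48 members with a half-life in all 5 replicates, 4 were longer in OLs, where 3.39% of all 8112 transcripts were called longer, and 0 were shorter, where 0.148% were (limma on log2 hours). At an unadjusted p under 0.05 there were 16 longer and 0 shorter members, and 1866 of all 8112 transcripts in either direction. After adjustment 1 longer member passed without OPC replicate 1 or OPC replicate 3, and fewer passed without OL replicate 2 than with all replicates. Without OL replicate 1 none was called longer, and 1, Adcy1, was called shorter in OLs (6 h in every OPC replicate and 4.48 h in OL replicate 2, adjusted p = 0.0292). That fit sets a single OL value against 3 values at the ceiling, so neither group shows a spread for Adcy1 and limma takes its spread from the other transcripts. The replicates did not overlap, longer in OLs, for 20 members (35.9% of all transcripts), and, shorter in OLs, for 0 (2.01% of all transcripts). The median difference was 0.56 over members and 0.37 over all transcripts on the log2 scale, so members and the whole table moved in the same direction. When each replicate was centred on its own median half-life, these medians were -0.34 and -0.53, and 0 members passed.

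The half-lives carry a coarse grain that came from the fit. With 5 time points and absolute deviations, the fit returned exactly 1.96 h (within 0.001 h) whenever 1 h and 2 h lay above the curve and 4 h and 6 h below it, which was the value for 25.6% of all transcripts and 17 of 51 members in OPC replicate 2, for 7.45% and 7 members in OPC replicate 3, for 2 members in OPC replicate 1, for 0 in OL replicate 1 and for 3 in OL replicate 2. At 6 h, 7, 16 and 12 of the 51 members were listed at 0 FPKM in the OPC libraries, against 1 and 0 of 64 in the OL libraries. Over all transcripts that share was 15.7% to 21.6% in OPCs and 4.08% and 0.790% in OLs. At 4 h, 0, 7 and 3 members were at 0 FPKM in the OPC libraries and 1 and 0 in the OL libraries. The part of these zeros in the longer OL half-lives was not tested. Leaving out the 6 h libraries removes a whole time point for every transcript, not only its zeros. After that 0 members passed, and 7 of all 8112 transcripts were called longer. The median difference was then 0.49 over members and 0.23 over all transcripts.

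**Figure D2:**
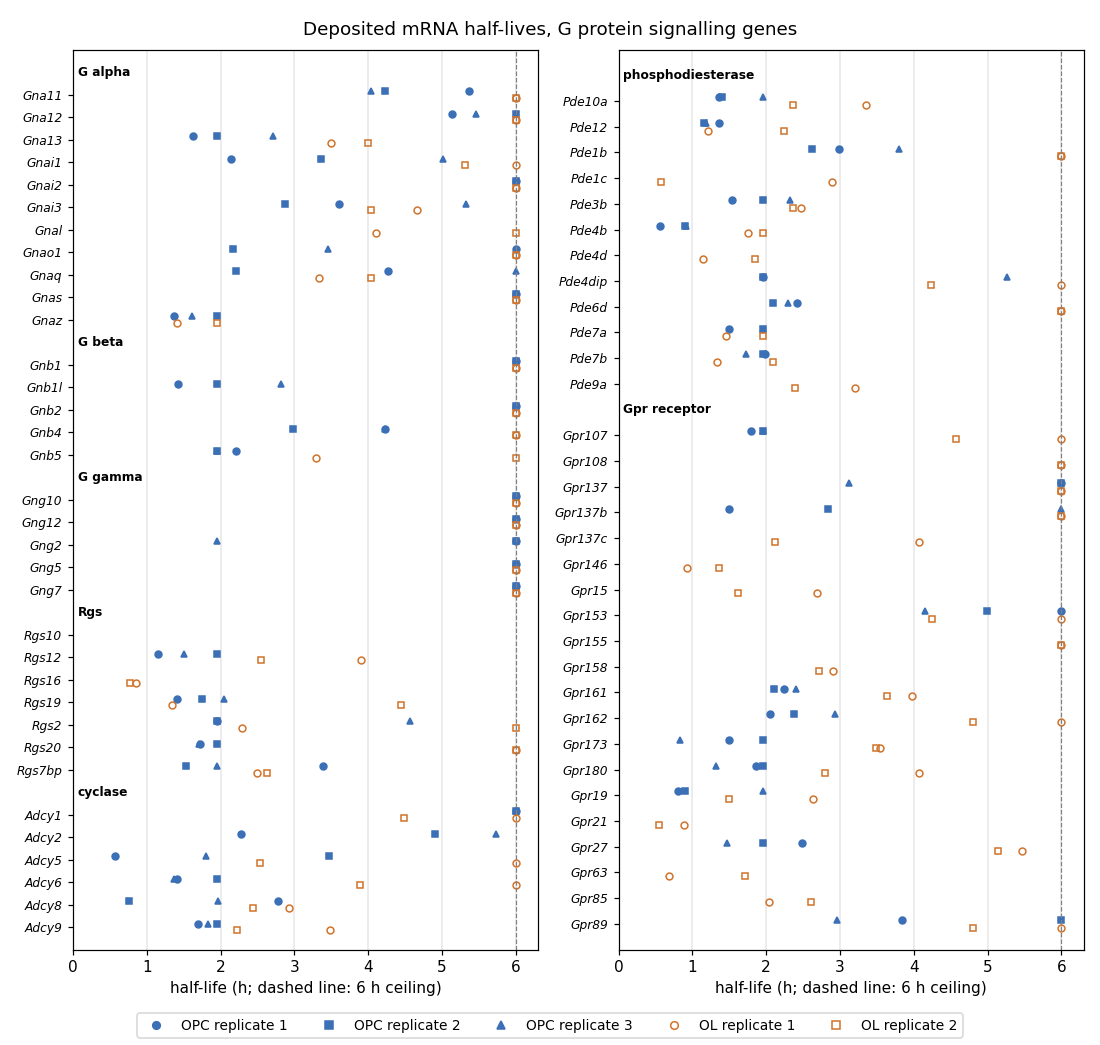
Deposited half-lives of the members in hours, grouped by role, with 1 point for each OPC replicate (filled) and OL replicate (open), and the 6 h ceiling as a dashed line. The 4 gamma subunits listed in both cell types stand at the ceiling in every replicate, Rgs20 moves from 1.70 to 1.96 h in OPCs to 6 h in OLs, and Pde7a is at 1.46 to 1.96 h throughout.

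The roles differed widely in how long their mRNAs lasted. In OPCs the median half-life was at the 6 h ceiling for the gamma subunits in every replicate, at 3.12 to 5.17 h for the alpha subunits, and at 1.73 to 1.96 h for the Rgs genes and 1.54 to 1.96 h for the phosphodiesterases. In OLs the alpha, beta and gamma subunits all had medians of 6 h, the Rgs genes 2.40 and 3.54 h, and the phosphodiesterases 2.68 and 2.30 h. The OL medians include members listed only in OLs, such as 12 phosphodiesterases against 9 in OPCs. Over all transcripts the median was 2.05 to 2.79 h in OPCs and 4.15 and 4.05 h in OLs. The share of all transcripts at the ceiling was 24.3% to 31.1% in OPCs and 39.7% and 36.1% in OLs. At the ceiling in all 5 replicates were 8 members, namely Gnai2, Gnas, Gnb1, Gnb2, Gng5, Gng7, Gng10 and Gng12, so for these a longer half-life in OLs could not have been seen.

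Rgs20, which accelerates GTP hydrolysis by Gz and Gi-type subunits, had the largest fitted difference, an order that the ceiling can set. Its half-life was 1.73, 1.96 and 1.70 h in OPCs, and both OL replicates reached the ceiling of 6 h. The fitted difference was 1.74 ± 0.08 on the log2 scale (adjusted p = 0.0124). Both OL values stand at the ceiling, which can only lower the fitted difference, and the SE holds no spread between the OL replicates. The same sign was found in all 13 alternatives, of which 6 kept it past the threshold (adjusted p 0.00254 to 0.505). It was lost without OPC replicate 1 (adjusted p = 0.0501), OL replicate 1 (0.0631) or OL replicate 2 (0.0566). After 6 h of chase its OPC replicates were at 15.2%, 0% and 0% of their 0 h level, while its OL replicates were at 67.1% and 89.5%.

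The other 3 members that passed were Pde6d, Gpr107 and Gpr161. Pde6d, the prenyl-binding protein, had half-lives of 2.42, 2.10 and 2.30 h in OPCs and 6 h in both OL replicates. The fitted difference was 1.40 ± 0.07 (adjusted p = 0.0171), which the ceiling can likewise only lower, with no OL spread in the SE. The call was lost without OPC replicate 3 (adjusted p = 0.0569), OL replicate 1 (0.0782) or OL replicate 2 (0.0709). Gpr107, a Golgi membrane protein, had 1.79, 1.96 and 1.96 h in OPCs and 6 and 4.57 h in OLs, a difference of 1.46 ± 0.15 (adjusted p = 0.0409) with 1 OL value at the ceiling. Its adjusted p was 0.121 without OPC replicate 1, 0.118 without OPC replicate 2, 0.108 without OPC replicate 3 and 0.0562 without OL replicate 1.

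Gpr161, an orphan receptor of the primary cilium that restrains hedgehog signalling, had 2.25, 2.11 and 2.40 h in OPCs and 3.98 and 3.64 h in OLs. The difference was 0.76 ± 0.08 (adjusted p = 0.0440), and the call was lost when any single replicate was left out. When replicates were centred the difference turned to -0.14, where the median over all transcripts was -0.53. Of the members that did not pass, Adcy6 had the largest fitted difference without overlap, also with 1 OL value at the ceiling, at 1.41, 1.96 and 1.37 h in OPCs and 6 and 3.89 h in OLs (1.63 ± 0.29, adjusted p = 0.0897). Gpr27, an orphan receptor, had 2.49, 1.96 and 1.47 h in OPCs and 5.46 and 5.14 h in OLs (1.46 ± 0.27, adjusted p = 0.0906).

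Several members had half-lives below the median of all transcripts in both cell types. Pde7a had 1.49, 1.96 and 1.96 h in OPCs and 1.46 and 1.96 h in OLs. It lay at the 26.8, 47.4 and 34.7 percentile of all transcripts in OPCs and at the 14.7 and 14.9 percentile in OLs. Pde12, the RNA-directed enzyme, had 1.36, 1.16 and 1.18 h in OPCs and 1.22 and 2.25 h in OLs, and Gnaz, the Gz subunit, 1.37, 1.96 and 1.62 h against 1.41 and 1.96 h. These values overlap between the cell types, and Gnaz lay between the 20.2 and the 47.4 percentile in OPCs. Pde4b was the shortest-lived phosphodiesterase in OPCs, at 0.560, 0.904 and 0.914 h, which lay between the 2.34 and the 4.35 percentile of all transcripts of its replicate, and it had 1.76 and 1.96 h in OLs.

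Among the OL-only members, Rgs16, an Rgs gene known for rapid induction, had half-lives of 0.858 and 0.772 h, at the 3.57 and 0.505 percentile of all OL transcripts. Gpr21 had 0.882 and 0.552 h, Gpr146 0.922 and 1.36 h, and Pde4d 1.15 and 1.84 h. Pde9a, the most abundant OL phosphodiesterase, had 3.21 and 2.39 h. Rgs10 in OLs and Adcy2 in OLs had no half-life.

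The decline of labelled mRNA was also tested over the chase libraries themselves, as a slope per hour of log2(FPKM + 1). This slope does not use the authors' fitted half-lives, but it comes from the same libraries and also takes the decline as a straight line on a log scale. In OPCs 43 of 51 members fell and 2 rose, where 81.7% and 4.31% of all 8530 transcripts did. In OLs 42 of 64 members fell and 1 rose, where 68.4% and 1.50% of all 9751 transcripts did. The median slope was -0.34 over members and -0.38 over all transcripts in OPCs, and -0.18 and -0.20 in OLs. These directions rest on the authors' spike-in scale. When every library was set to the median level of its replicate's 0 h library, 22 members rose and 5 fell in OPCs, where 39.8% and 13.9% of all transcripts did, and 22 rose and 8 fell in OLs, where 31.2% and 13.8% did. The median over all transcripts moved to 0.06 and 0.03.

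**Figure D3:**
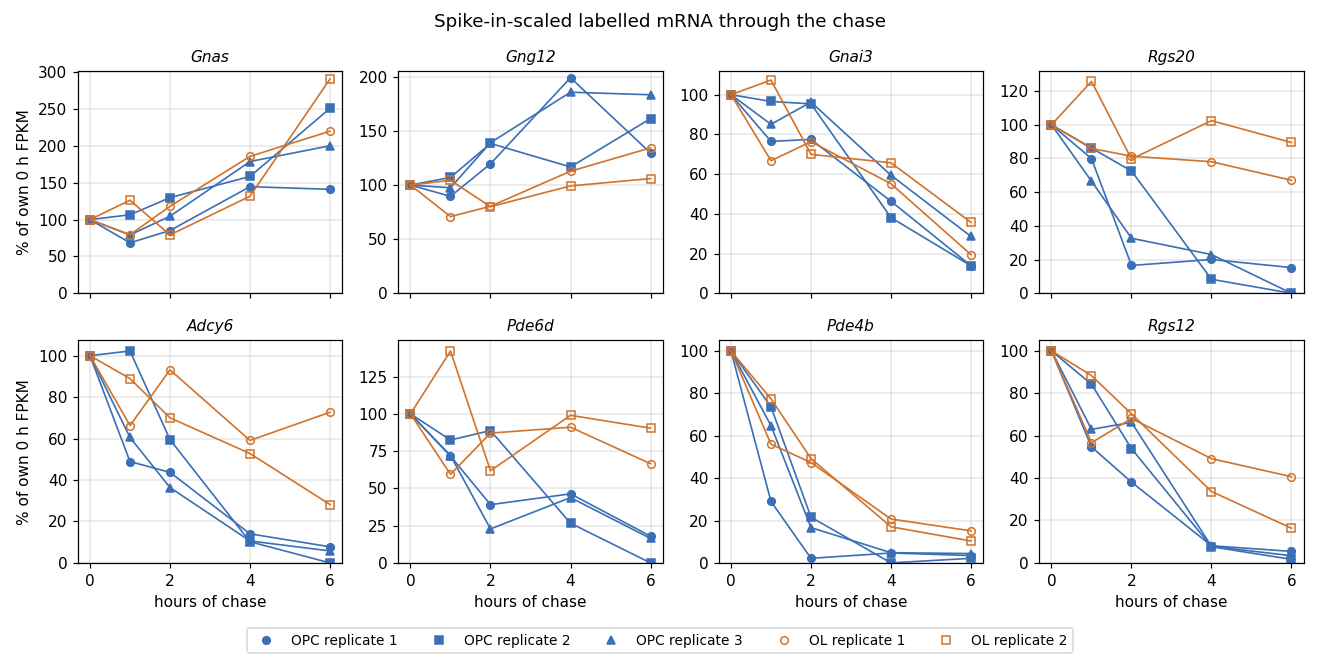
Spike-in-scaled labelled mRNA of 8 members in percent of each replicate's own 0 h FPKM (vertical axis, a separate scale in each panel) against hours of chase, with 1 line for each OPC replicate (filled) and OL replicate (open). Rgs20 and Adcy6 stay higher in both OL replicates at 4 h and 6 h than in any OPC replicate, Pde4b falls to 15.1% or less in all 5 replicates by 6 h, and Gnas lies above 100% at 6 h in all 5.

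Among members in OPCs, labelled mRNA fell most steeply for Pde4b (-0.65), Rgs12 (-0.63) and Rgs19 (-0.63), all past the threshold, with Pde4b (adjusted p = 0.0516) and Rgs19 (0.0523) no longer so when libraries were set to the 0 h median. Pde4b was at 29.0%, 73.7% and 64.8% of its 0 h level after 1 h and at 3.5%, 2.2% and 4.4% after 6 h in OPCs, in the order of the replicates. In OLs the steepest were Pde4d (-0.58), Pde7a (-0.49) and Pde4b (-0.48), all 3 cyclic AMP phosphodiesterases. A slope of log2(FPKM + 1) is flatter for genes of low level: Gpr21, at 3.88 and 5.75 FPKM at 0 h, was down to 5.62% and 5.93% after 6 h, and Gpr146 to 8.30% and 4.45%. Pde4b was at 15.1% and 10.3% and Pde4d at 6.7% and 7.1% after 6 h in OL replicates 1 and 2.

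At the other end stood Gnas, which rose through the chase in OPCs (0.19 ± 0.04 per h) and in OLs (0.23 ± 0.05 per h, which did not pass without the 6 h libraries, adjusted p = 0.112). After 6 h it stood at 141%, 251% and 200% of its 0 h level in OPCs, and at 220% and 291% in OLs. The Gnas locus holds an annotated opposite-strand gene model whose exons overlap 1466 nt of the listed transcript, and whether strand was used in the counting is not given in the sources used here. Gng12 rose in OPCs (0.13 ± 0.04 per h), a call lost without OPC replicate 3 (adjusted p = 0.0886), and did not pass in OLs (0.07 ± 0.05 per h). Gng5 in both cell types (0.08 per h in each) and Adcy2 in OLs (0.10 per h) had positive slopes that did not pass.

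Slopes were then compared between the cell types in 1 model of all 25 libraries. Of 49 members 17 declined more slowly in OLs, where 32.1% of all transcripts did, and 0 declined faster, where 0.391% did (limma). At an unadjusted p under 0.05 there were 20 slower and 0 faster members, and 3559 of all 8177 transcripts in either direction. The members' share of 34.7% is close to that of all transcripts, and the median difference was 0.13 per h over members and 0.14 over all. With libraries set to the 0 h median, the split was 2 members slower and 13 faster in OLs (4.08% and 26.5%), against 4.17% and 22.5% of all transcripts, and the median over all transcripts was -0.07. The count was 5 without OL replicate 1, 9 without OL replicate 2 and 10 without the 6 h libraries.

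A pair of members kept a slower decline in OLs in all 10 alternatives, the 0 h median scaling included. For Rgs20 the OPC slopes were -0.36, -0.68 and -0.57 and the OL slopes -0.07 and -0.03, a difference of 0.49 ± 0.09 per h (adjusted p = 4.68e-04, with 9.75e-05 to 0.0222 over the alternatives). For Adcy6 it was -0.48, -0.72 and -0.57 in OPCs and -0.06 and -0.27 in OLs, a difference of 0.42 ± 0.07 per h (adjusted p = 3.32e-04, with 3.22e-04 to 0.0311 over the alternatives). Both genes had OL slopes above every OPC slope. Adcy6 shares 605 nt of exon with an annotated opposite-strand gene model.

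By role, 3 of 5 Rgs genes, 2 of 6 cyclases, 4 of 9 phosphodiesterases, 5 of 11 Gpr genes, 2 of 10 alpha subunits, 1 of 4 beta subunits and none of 4 gamma subunits declined more slowly in OLs, where 32.1% of all transcripts did. Without OL replicate 1 the 5 that passed were Rgs20, Adcy6, Pde1b, Gpr107 and Gnb5, so 1 of 5 Rgs genes, 1 of 9 phosphodiesterases, 1 of 11 Gpr genes and 0 of 10 alpha subunits. With libraries set to the 0 h median, Rgs20 and Adcy6 were slower, and the 13 faster members were all 4 gamma subunits, 4 cyclases, 2 alpha subunits, 2 beta subunits and Pde7a, where 22.5% of all transcripts were faster. The Rgs genes were Rgs20, Rgs19 and Rgs12, with a median difference of 0.37 over the 5 tested. Rgs19, Rgs12, Pde1b, Pde10a and Adcy2, all slower in OLs, were also called lower at 0 h there, where this slope is flatter for the same relative loss. Rgs20, Gpr162 and Adcy6, not called at 0 h, also had lower mean 0 h levels in OLs. Their means were 8.24, 10.0 and 13.6 FPKM in OLs against 11.8, 23.0 and 16.8 FPKM in OPCs. The Rgs19 half-lives overlapped (1.40, 1.75 and 2.05 h in OPCs, 1.35 and 4.45 h in OLs). The phosphodiesterases were Pde6d, Pde4dip, Pde10a and Pde1b. Across the 48 members, Spearman's rank correlation between the change in level and the change in half-life was 0.09, against -0.01 over all transcripts, and the points share their 5 replicates.

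**Figure D4:**
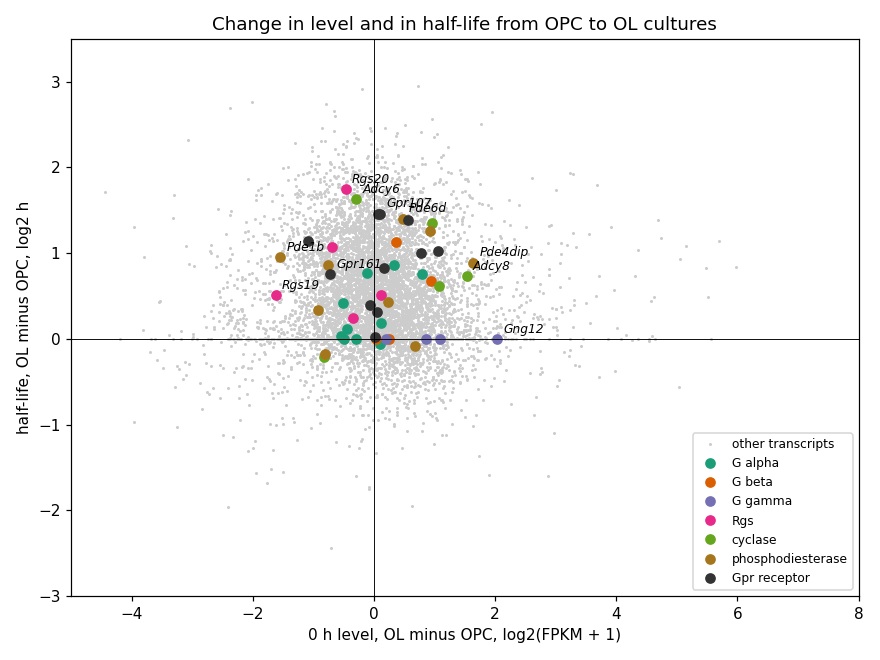
Change from OPCs to OLs in 0 h level (horizontal, log2(FPKM + 1)) against change in half-life (vertical, log2 hours), for 48 members (coloured by role) and the other transcripts with both values (grey, 1 of them outside the axes). Of the members, 36 lie above the horizontal line, 4 below it and 8 on it, where both cell types stand at the ceiling. The share above it is 75% of members and 69.8% of all transcripts with both values, and Gng12 lies farthest to the right on that line.

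Partners of these genes were described from a list of 51 that holds protein kinase A subunits and their inhibitors and anchors, Epac-type exchange factors, receptor kinases, arrestins, CREB-family genes and G protein regulators. Of 33 in both tables, 1 rose and 5 fell at 0 h (13.8% and 15.8% of all transcripts), 1 had a longer half-life (3.39% of all) and 15 declined more slowly in OLs (32.1% of all) with 0 faster. Those 15 became 7 without OPC replicate 2, 5 without OL replicate 1, 6 without OL replicate 2 and 6 without the 6 h libraries. With libraries set to the 0 h median, 2 were slower and 4 faster (4.17% and 22.5% of all). Plcb3, a phospholipase C beta gene downstream of Gq, fell from 25.4 to 29.9 FPKM in OPCs to 5.59 and 9.66 FPKM in OLs (-1.77 ± 0.26, adjusted p = 0.00237). Akap12, an anchor for protein kinase A, went from 10.4, 24.0 and 13.0 FPKM to 6.93 and 5.30 FPKM (-1.17 ± 0.34, adjusted p = 0.0362). Grk6, a receptor kinase, and Arrb2, an arrestin, fell as well (-0.98 ± 0.24 and -0.93 ± 0.28), as did Akap1 (-0.70 ± 0.22). Arhgef11, a guanine nucleotide exchange factor, rose (0.98 ± 0.31, adjusted p = 0.0465), and Ric8a, a chaperone of alpha subunits, had the longer half-life (1.51 ± 0.08, adjusted p = 0.0152). Of these 0 h calls Plcb3 held in all 9 alternatives, and those of Akap12, Grk6, Arrb2, Akap1 and Arhgef11 were each lost without OPC replicate 3, OL replicate 1 or OL replicate 2 (adjusted p 0.0727 to 0.210), that of Akap1 also without OPC replicate 1 (0.0746) or OPC replicate 2 (0.0660). The Ric8a call was lost without OPC replicate 1 (0.0593) or OPC replicate 2 (0.0617). The median 0 h difference over the 33 was -0.01.

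Because the OL medium held cyclic AMP, 11 genes that cyclic AMP is known to induce were also read. Of 8 in both tables, 1 rose at 0 h (13.8% of all transcripts) and none fell (15.8%), with a median difference of 0.22. Fos, an immediate early gene, was at 5.42, 3.20 and 10.3 FPKM in OPCs and 16.4 and 29.4 FPKM in OLs (1.77 ± 0.42, adjusted p = 0.0176, lost without OL replicate 1 at 0.0548 or OL replicate 2 at 0.141). Of 5 with half-lives in every replicate, Per1 alone passed, with 1.52, 1.96 and 1.96 h in OPCs and 5.22 and 6 h in OLs, a call lost when any single replicate was left out (adjusted p 0.0573 to 0.142). The part of the added cyclic AMP in any of these values was not tested.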

How the data were processed

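Labelled RNA was measured in 25 libraries (3 OPC and 2 OL replicates at 5 time points each). After adapter removal (fastx_clipper), the authors used hisat2 2.1.0 for alignment to GRCm38 and computed FPKM with stringtie 1.3.5 and ballgown over canonical coding transcripts (GENCODE vM9), and the authors scaled these deposited FPKM at each time point to 5-EU-labelled LYSa and luciferase spike-ins. The 0 h columns carry 6 decimals and the later ones fewer, so whether a factor was applied at 0 h is not settled. Only transcripts of 1 FPKM or more at 0 h were kept. The authors fitted the deposited half-lives (in hours) replicate by replicate, by least absolute deviations, and values above the ceiling were set here to 6 h. FPKM gives no read depth, so no counting error is given.

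Here log2(FPKM + 1), log2 half-lives and slopes over hours (with a replicate term) were fitted with limma 3.58.1 (R 4.3.3) across all transcripts, with Benjamini-Hochberg adjustment, two-sided, at 0.05. The fits were tested on simulated data. Differences are OL minus OPC. Members and gene lists were chosen with earlier results of these data known. Every member may be named by level or half-life. Test values are given for up to 12 members past the threshold by size of effect, filled to 6 with the largest members whose replicates did not overlap, for the 3 steepest and 3 least steep declines, and for up to 4 genes of a list. The other 8 members called at 0 h, Adcy1 in half-life, and further genes of the partner and marker lists were given test values after these had been seen. The no-biotin control was not used here.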

Additional observations from a re-analysis of the deposited data

Results flagged for a closer look

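The decline of labelled mRNA was compared between OPCs and OLs by a test of the difference in slope (log2(FPKM + 1) per hour, OL minus OPC, adjusted p under 0.05). It was slower in OLs for 17 of 49 members (34.7%, against 32.1% of all transcripts). The 12 with the largest difference are given below. The Rgs genes were Rgs20 (0.49), Rgs19 (0.43) and Rgs12 (0.37). The cyclases were Adcy6 (0.42) and Adcy2 (0.29), the phosphodiesterase-named genes Pde6d (0.45), Pde4dip (0.34), Pde10a (0.32) and Pde1b (0.29), and the others Gnb5 (0.43), Gpr162 (0.42) and Gpr107 (0.34). Without OL replicate 1 the calls of Pde6d, Rgs19, Gpr162, Rgs12, Pde4dip, Pde10a and Adcy2 were lost (adjusted p 0.0646 to 0.300), without OL replicate 2 those of Pde6d, Gnb5 and Pde1b (0.0608 to 0.186), and without OPC replicate 2 that of Adcy2 (0.0893). Without the 6 h libraries those of Pde6d, Gnb5, Rgs19, Pde4dip, Adcy2 and Pde1b were lost (0.0591 to 0.252). With every library set to the 0 h median the calls of all but Rgs20 and Adcy6 were lost, and each of the 12 kept its sign. With groups of 3 and 2 replicates no single sample could be tested as standing apart.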

How the results depend on the processing

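With other settings the number of members that passed changed as follows. For 0 h levels (20 members) it was 11 with a replicate block, and 6 to 19 when a replicate was left out. For half-lives (4 members) it was 0 with replicates centred, 1 after rescaling to the mean decay curve, 0 without the 6 h libraries, 0 with a replicate block, 1 by least squares (chosen after seeing the data), and 1 to 3 when a replicate was left out. That 1 without OL replicate 1 was Adcy1, shorter in OLs, where 1 OL value stood against 3 at the ceiling and neither group showed a spread. With the median of 0 h set in every library the decline in OPCs gave 27 members in place of 45. Without the 6 h libraries the decline in OLs gave 26 in place of 43, and the decline difference 10 in place of 17. When a replicate was left out the declines gave 42 to 46 members in OPCs and 29 to 37 in OLs, and the difference 5 to 19. Gpr161 turned to -0.14 in half-life with centring, where the median over all transcripts was -0.53. Adcy2 turned to -0.011 in its OL decline without OL replicate 1 (0.208 without OL replicate 2). Without an OL replicate the lone OL sample is assumed to vary like the OPC samples. The causes were not tested.

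OPC and OL replicates share numbers in the labels, and the OLs match 2 of the OPC replicates, but no source says that equal numbers mark the same starting cells, and deviations at 0 h correlated at 0.059 for number 1 and 0.010 for number 2, so the block is given here only. With it Rgs20 (adjusted p = 0.155), Pde6d (0.168), Gpr107 (0.248) and Gpr161 (0.155) did not pass in half-life, nor at 0 h did Gnb4 (0.0786), Gpr137b (0.0776), Pde4b (0.0516), Gng10 (0.0818), Gpr180 (0.0873), Adcy1 (0.137), Pde7b (0.128), Pde10a (0.0905) and Rgs12 (0.180). Without the replicate term the declines gave 45 members in OPCs, 40 in OLs and 16 for the difference. With 3 replicates against 2 and no read counts, a member that did not pass may still differ.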
